A study of Mus musculus with 12 samples.

Results

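Mild heating of ATDC5 cells was examined here as the comparison of 40 °C with 37 °C, across all genes of the deposited count table. ATDC5 is a mouse line of cartilage progenitor cells, wild type by its labels. The members were chosen by temperature label alone: the 4 libraries at 40 °C and the 4 at 37 °C, 8 of the 12 in the series, and 14424 of the 54532 listed genes had enough reads to be tested. All groups were grown at 37 °C in high-glucose DMEM with serum under 5% CO2, and each dish was then held for 10 min at 37 °C (the control), 40 °C or 44 °C. Poly-A RNA was sequenced. The series design text calls the 4 libraries of a temperature biological replicates, but nothing says how they were cultured, so p-values measure only the spread between these libraries. The time from the end of the exposure to RNA extraction is not given, and each value belongs to that unknown interval.

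When a cell is heated, proteins begin to unfold and draw chaperones such as HSP70 and HSP90 away from heat shock factor 1 (HSF1). The freed HSF1 forms trimers, binds repeated heat shock elements in promoters and switches on the genes for HSP70, its HSP40 partners and small heat shock proteins. Cartilage cells are also known to sense load and temperature through calcium channels such as TRPV4, and they share with other fibroblast-like cells a growth response that works through the actin-linked factors SRF and YAP.

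No gene passed the test at 40 °C. Of the 14424 genes tested, 0 (percent called, 0) had an adjusted p under 0.05 by edgeR's quasi-likelihood test with Benjamini-Hochberg adjustment, and the smallest adjusted p was 0.823. An unadjusted p under 0.05 was found for 752 genes (5.21%), 305 of them higher (2.11%) and 447 lower (3.1%). With 1 library left out, the count at an unadjusted p under 0.05 ran from 441 (without 37 °C library 1) to 1056 (without 37 °C library 3). With the 8 libraries alone that count was 937 and the smallest adjusted p was 0.149 by edgeR's test, with 0 genes called. DESeq2 called 4 genes and limma-voom 0. In the same fit, 44 °C against 37 °C gave 1975 calls (13.7%), with 949 genes higher (6.58%) and 1026 lower (7.11%), and 4455 genes (30.9%) with an unadjusted p under 0.05. The contrast of 44 °C with 40 °C gave 724 calls (5.02%), with 271 genes higher (1.88%) and 453 lower (3.14%). Those comparisons share libraries with the one described here. For 553 genes (3.83%) the 4 libraries at 40 °C lay all above or all below the 4 at 37 °C in CPM (counts scaled to the size of the library), 232 above (1.61%) and 321 below (2.23%).

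The estimates themselves were small. The median log2 fold change over all genes tested was −0.00096, and the median of its absolute value was 0.09. Estimates reached 1.5-fold in either direction for 505 genes (3.5%) and 2-fold for 72 (0.499%). Of those 72 genes, 52 had a mean under 1 CPM and 16 a mean between 1 and 5 CPM. The other 4, at 5 CPM or more, were the pseudogenes Gm11585, Gm2260 and Gm10705 and the noncoding gene Gm10076, named here because the count was small. Gm11585 stood at 10.9 ± 3.35 and 25.8 ± 2.11 CPM at 37 and 40 °C (SD, n = 4 each), with no overlap between the groups, and the other 3 overlapped. Reads of pseudogenes can be split with near-identical copies in counting, so these values are uncertain.

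**Figure D1:**
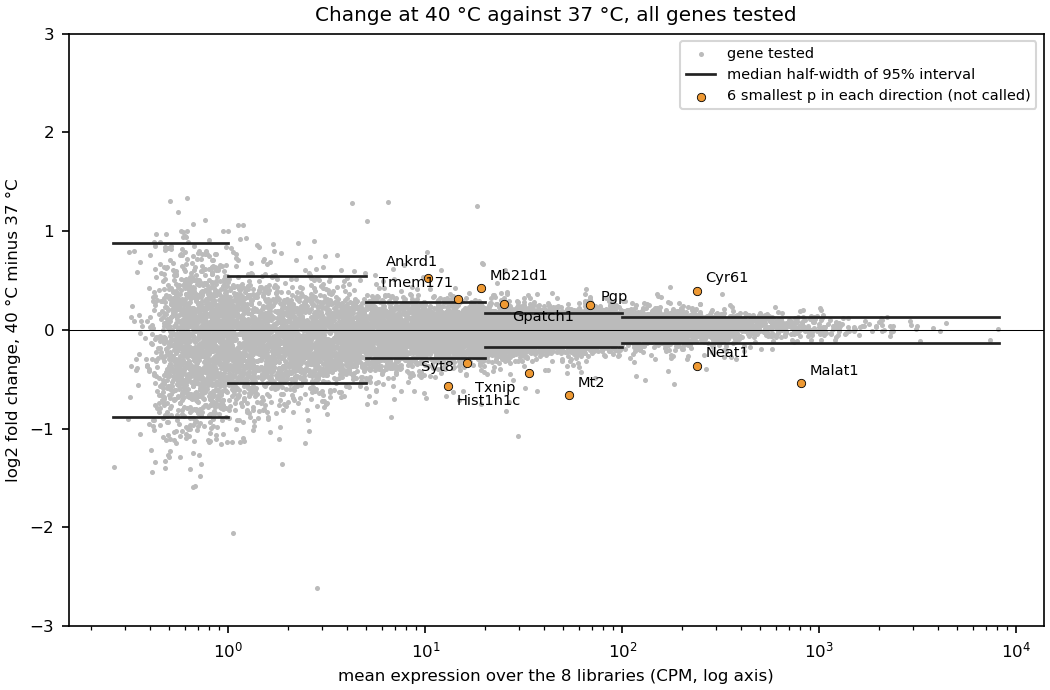
Each grey point is 1 of the 14424 genes tested, by its mean over the 8 libraries in CPM (log axis) and its log2 fold change at 40 °C against 37 °C; black lines give the median half-width of the 95% interval in each range of expression. The cloud narrows as expression rises, and the 12 orange genes, with the smallest p in each direction at 5 CPM or more and no predicted-gene name, lie outside the black lines without passing the adjusted test.

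How closely a change was bounded depended on expression. For each gene the limit of its 95% interval farther from 0 was taken as the bound on its change. The interval lay inside a 1.5-fold change either way for 10516 genes (72.9%), inside 2-fold for 12732 (88.3%) and inside 1.2-fold for 5398 (37.4%). A pair of one-sided tests against a 1.5-fold change, chosen after the data were seen, held at an adjusted p under 0.05 for 10808 genes (74.9%), against a 2-fold change for 13155 (91.2%) and against a 1.2-fold change for 4802 (33.3%). In the 2543 genes at 100 CPM and over, 98.8% had an interval inside 1.5-fold and the median bound was a 1.14-fold change. At 20 to 100 CPM the share was 97.6% and the median bound 1.18-fold, and at 5 to 20 CPM they were 84.5% and 1.31-fold. Below 5 CPM the data carried much less: at 1 to 5 CPM the share was 22.5% with a median bound of 1.69-fold, and under 1 CPM it was 0.132% with a median bound of 2.32-fold. For most genes under 1 CPM a doubling was not excluded, since 24.7% of them had an interval inside 2-fold.

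**Figure D2:**
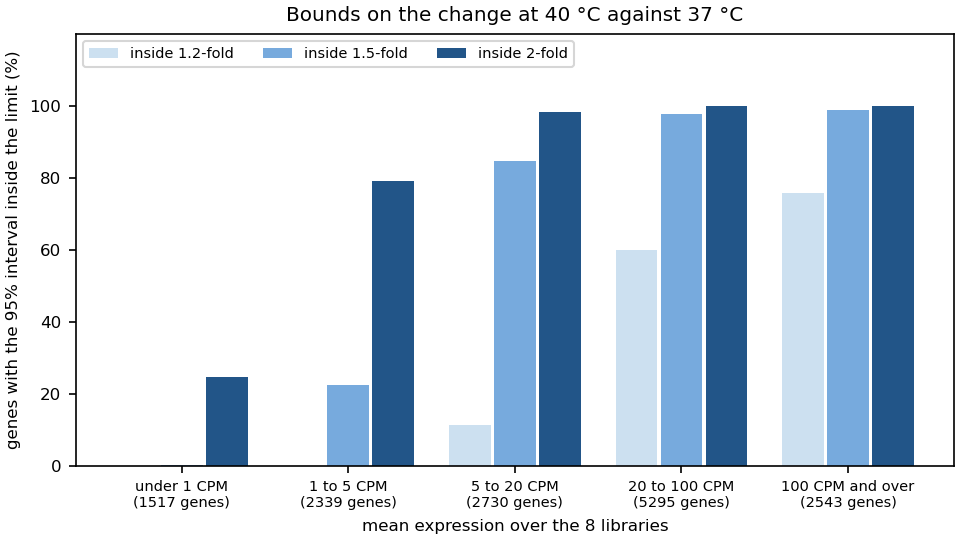
Bars give the percent of genes whose 95% interval of the change at 40 °C against 37 °C lies inside a 1.2-, 1.5- or 2-fold change either way, for 5 ranges of mean CPM over the 8 libraries. Nearly all genes at 20 CPM and over are bounded within 1.5-fold (97.6% and 98.8%), against 0.132% of those under 1 CPM.

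The libraries differed within groups by about as much as between them. Total counts lay between 16269026 and 19506705 per library. For genes at 5 CPM or more, the median SD of log2 CPM was 0.0976 at 37 °C and 0.114 at 40 °C, and without 40 °C library 2 the latter was 0.0821. The median absolute log2 difference from the mean of the 37 °C libraries was 0.0975, 0.191, 0.112 and 0.1005 for 40 °C libraries 1 to 4, and each 37 °C library differed from the other 3 by between 0.0805 and 0.151. So 40 °C library 2 lay farther out than any 37 °C library, and libraries 1, 3 and 4 at 40 °C lay within the range of the 37 °C libraries. The first component of the deviations from group means held 29.8% of the variance within groups. Libraries were placed on it by their levels relative to the mean of all libraries, so the scores can also carry differences between temperatures. On it, 37 °C library 1 (−1.47) and 40 °C library 2 (1.46) stood at the ends of the 8. Many list medians, though not all, are given below with and without these libraries. On the cell type, the cartilage matrix markers Col2a1 (1.21 ± 0.23 CPM at 37 °C) and Acan (2.13 ± 0.42) were low and Comp, Matn1, Hapln1 and Col9a1 were under the filter, while Sox9 had 54.2 ± 10.2 CPM and mesenchymal progenitor markers summed to between 5088 and 5753 CPM. Markers of other cell types, summed over all genes of each list, ranged widely at 37 and 40 °C: smooth muscle and perivascular 204 to 232 and 213 to 261 CPM, epithelial 110 to 147 and 98.4 to 138 CPM, macrophage and blood 46.0 to 67.3 and 37.3 to 50.7 CPM, adipocyte 44.9 to 52.8 and 41.7 to 49.3 CPM, neuron and glia 24.2 to 28.8 and 17.2 to 27.3 CPM, endothelial 4.31 to 4.82 and 4.67 to 5.34 CPM, and skeletal muscle 0.666 to 1.09 and 0.123 to 0.533 CPM. At 0 in all 8 libraries were Krt5 (epithelial), Adgre1 (macrophage), Adipoq (adipocyte), Rbfox3 (neuron), Emcn (endothelial) and Myod1, Myog, Ckm and Actc1 (skeletal muscle), and none of the smooth muscle list. The summed skeletal muscle level did not overlap between the groups, but it rests on few reads. No gene of that list passed the filter, and 7 of its 8 genes stayed under 1 CPM. The mean log2 level of the 4 endothelial markers past the filter did not overlap either and was higher at 40 °C. The part of these markers in the results was not tested.

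The inducible HSP70 genes stood higher at 40 °C in every library without passing the adjusted test. Hspa1a (ENSMUSG00000091971, mm10 chromosome 17, 34969190 to 34972156), the stress-inducible HSP70 gene, had 0.656, 0.789, 1.06 and 0.597 CPM at 37 °C and 1.25, 1.08, 1.302 and 1.71 CPM at 40 °C. Its neighbour Hspa1b (chromosome 17, 34956436 to 34959238) had 8.47, 9.10, 8.79 and 8.36 CPM at 37 °C and 9.66, 10.0, 10.3 and 11.3 CPM at 40 °C. The groups did not overlap for either gene, but the 2 genes are near-identical copies whose reads counting can split, so their separate values are uncertain. The log2 fold change was 0.79 for Hspa1a (95% interval from 0.15 to 1.42) and 0.25 for Hspa1b (0.05 to 0.44), with an adjusted p of 0.823 for both by edgeR. At 44 °C the same genes stood 2.57 and 1.12 above 37 °C on the log2 scale, and the step from 40 °C to 44 °C was itself called for both (1.78 and 0.87, adjusted p = 0.00106 and 6.67e-05).

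The 250 bases before the start of Hspa1a, Hspa1b and Hspb1 are shown because these are the textbook promoters of heat shock regulation, from the RefSeq table on GRCm38.p6, the build also called mm10. Capitals mark each match to the 8 letters GAANNTTC or TTCNNGAA, which cover 2 adjoining units of a heat shock element. Each reads the same on both strands. The windows are chr17:34972157-34972406 (minus strand) for Hspa1a, chr17:34959239-34959488 (minus strand) for Hspa1b and chr5:135887669-135887918 (plus strand) for Hspb1.
Hspa1a: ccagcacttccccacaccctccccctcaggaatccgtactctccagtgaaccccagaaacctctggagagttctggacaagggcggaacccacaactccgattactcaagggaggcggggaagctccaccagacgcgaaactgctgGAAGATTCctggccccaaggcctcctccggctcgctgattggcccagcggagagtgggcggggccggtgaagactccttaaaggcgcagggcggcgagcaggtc
Hspa1b: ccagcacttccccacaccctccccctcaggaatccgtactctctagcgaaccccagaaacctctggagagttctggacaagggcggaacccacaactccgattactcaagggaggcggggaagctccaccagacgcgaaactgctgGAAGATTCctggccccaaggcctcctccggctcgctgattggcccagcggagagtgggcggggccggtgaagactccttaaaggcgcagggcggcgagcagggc
Hspb1: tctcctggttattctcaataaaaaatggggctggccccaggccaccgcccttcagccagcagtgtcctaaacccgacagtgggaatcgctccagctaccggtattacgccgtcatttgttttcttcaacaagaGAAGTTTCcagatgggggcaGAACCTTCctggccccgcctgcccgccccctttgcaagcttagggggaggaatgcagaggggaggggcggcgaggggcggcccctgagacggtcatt
The Hspa1a and Hspa1b windows were identical at 247 of 250 bases, with 1 match each, 104 bases before the start, and the Hspb1 window held 2 matches, 97 and 117 bases before it. Of the 14424 genes tested, 10308 had a window in the table, and 1229 of these (11.9%) held the 8 letters. Their median log2 fold change at 40 °C was −0.00029, against 0.0022 for all 10308. The longer element of 13 letters, GAANNTTC followed by NNGAA or its reverse complement, TTCNNGAA followed by NNTTC, contains the shorter one and was in 46 windows (0.446%), with a median of 0.04. Genes of the cytosolic chaperone lists held the 8 letters in 11 of 35 windows (31.4%), genes with all 40 °C libraries above in 24 of 159 (15.1%) and genes with all below in 34 of 212 (16.04%). These matches describe letters in a window and were not tested.

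Other chaperone genes were close to their 37 °C levels. Dnajb1, an HSP40 partner of HSP70 and a standard HSF1 target, had 118, 131, 134 and 122 CPM at 37 °C and 137, 139.5, 142 and 145 CPM at 40 °C. Every 40 °C library was above every 37 °C library, although the difference was small: the log2 fold change was 0.16 (0.05 to 0.27), and at 44 °C it was 0.03. Hspb1, the gene of the small heat shock protein HSP27, had 78.2, 72.3, 60.2 and 74.5 CPM at 37 °C and 65.6, 61.1, 63.8 and 75.0 CPM at 40 °C. The groups overlapped, with a log2 fold change of −0.10 (−0.30 to 0.09), whereas the step from 40 °C to 44 °C was 1.74 (adjusted p = 1.31e-07). A rise of Hspb1 by more than 0.09 on the log2 scale at 40 °C lay outside its interval. The constitutive HSP70 gene Hspa8 (log2 fold change 0.12, −0.09 to 0.33), the HSP110 gene Hsph1 (0.22, −0.12 to 0.57) and the inducible HSP90 gene Hsp90aa1 (0.13, −0.04 to 0.30) overlapped between the groups. In each of these 3 genes the lowest of the 8 libraries was 37 °C library 1 and the highest 40 °C library 2.

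**Figure D3:**
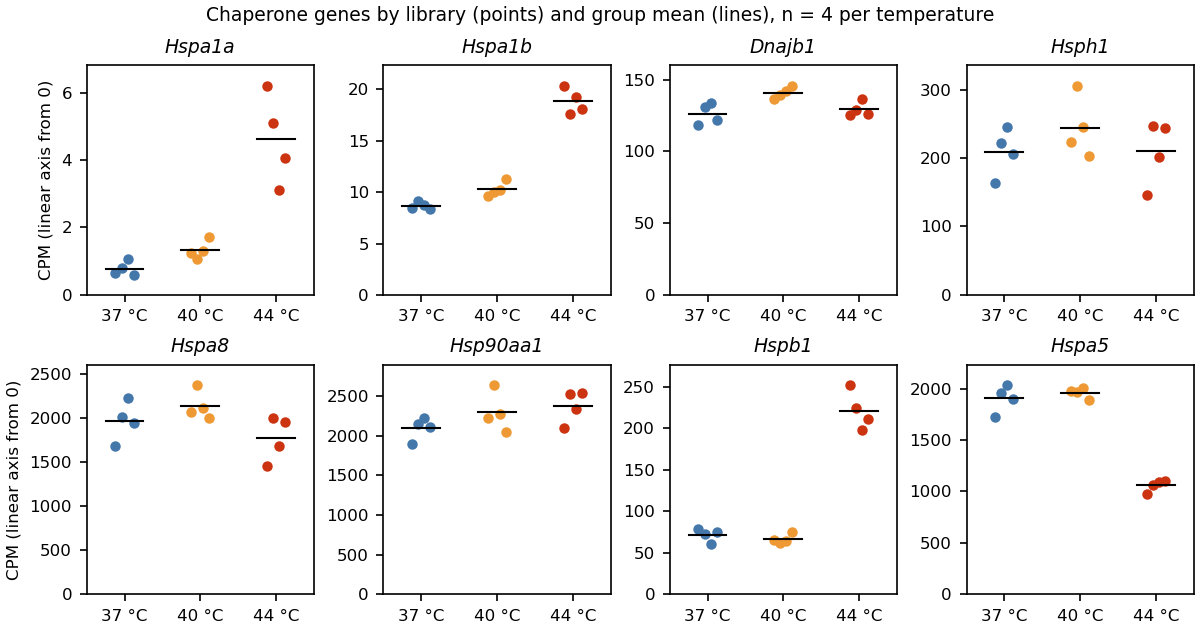
Points are the CPM of 8 chaperone genes in the 4 libraries at each of 37, 40 and 44 °C, on linear axes that start at 0, and lines are group means. Hspa1a, Hspa1b and Dnajb1 have every 40 °C library above every 37 °C library, the other 5 genes overlap between 37 and 40 °C, and at 44 °C Hspa1a, Hspa1b and Hspb1 lie above and Hspa5 below both other temperatures.

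By family, the HSP70, HSP90, HSP40 and TRiC lists had medians slightly above 0 at 40 °C and the small heat shock proteins one below 0. Of 10 HSP70 and HSP110 genes, 7 had an estimate above 0 (49.7% of all genes tested did), 7 had an interval inside 1.5-fold (72.9% of all genes), 2 lay all above 37 °C (Hspa1a and Hspa1b, against 1.61% of all genes), and the median log2 fold change was 0.13 against −0.00096 for all genes. Without 37 °C library 1 and 40 °C library 2 that median was 0.02, so much of the median rested on those libraries. The list means per library, which include Hspa1a and Hspa1b, did not overlap. They were −0.103 to 0.050 at 37 °C and 0.120, 0.213, 0.161 and 0.154 in 40 °C libraries 1 to 4. Of 13 genes for HSP90 and its co-chaperones, 11 were above 0, with a median of 0.09 and a range from −0.08 for Fkbp5 to 0.18 for Chordc1, and all 13 had an interval inside 1.5-fold. Their median was 0.02 without those libraries. The 11 cytosolic HSP40 genes ran from −0.20 for Dnaja4 to 0.16 for Dnajb1 with a median of 0.05 (−0.01 without both of those libraries), and all 11 intervals lay inside 1.5-fold. Of the small heat shock proteins and their partner Bag3, 4 of 5 measured genes were below 0 with a median of −0.06 (−0.02 without both libraries), among them the lens crystallin and small heat shock protein gene Cryab (−0.17). The 14 genes of the cytosolic chaperonin TRiC and prefoldin, which fold actin and tubulin, had a median of 0.09 (0.02 without both libraries), with Cct3 highest (0.17). The 7 heat shock factors and regulators had a median of 0.03 (−0.02 without both libraries), with Hsf4 lowest (−0.15), and Hsf1 itself stood at 0.08 (−0.09 to 0.25).

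Chaperones of the mitochondrion and the endoplasmic reticulum (ER) lay near their 37 °C levels. The 13 mitochondrial chaperone and protease genes had a median of 0.04 (−0.0086 without 37 °C library 1 and 40 °C library 2), and Hspe1, the partner of HSP60, was highest at 0.23 (−0.01 to 0.47). The 22 genes of the ER unfolded protein response had a median of −0.01, all 22 intervals were inside 1.5-fold and 19 were inside 1.2-fold. Hspa5, which encodes the main ER chaperone BiP, had 1725, 1959, 2031 and 1898 CPM at 37 °C and 1980.5, 1968, 2006 and 1890.0 CPM at 40 °C. The groups overlapped (log2 fold change 0.04, −0.07 to 0.16), and the same gene was lower at 44 °C than at 40 °C by a called step of −0.89 (adjusted p = 5.31e-07). Calr, for the ER calcium-binding chaperone calreticulin, gave 0.02 (−0.09 to 0.14) with a step of −0.82 at 44 °C (adjusted p = 6.87e-07). Hyou1, an HSP70-like ER chaperone gene, had the largest estimate of the list (0.15, 0.01 to 0.29).

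Among genes at 5 CPM or more without a predicted-gene name, the smallest p belonged to Malat1 and Mt2, followed by Neat1 and Hist1h1c, all lower at 40 °C. Over all genes, 9230116N13Rik, a processed transcript below that level, had a smaller p than Malat1, and 3110039I08Rik came between Mt2 and Neat1; both were lower and were looked up after their values were seen. Malat1 (ENSMUSG00000092341, chromosome 19, 5795690 to 5802672), an abundant long noncoding RNA kept in nuclear speckles, had 1148, 811, 937 and 926 CPM at 37 °C and 715, 768, 534 and 610.5 CPM at 40 °C. All 4 libraries at 40 °C were below those at 37 °C, with a log2 fold change of −0.54 (−0.77 to −0.31). Its neighbour Neat1 (chromosome 19, 5824708 to 5845478), the RNA scaffold of paraspeckles, had 312, 248, 248 and 271 CPM at 37 °C and 236, 211, 188 and 205 CPM at 40 °C (−0.36, −0.53 to −0.19). Mt2 (chromosome 8, 94172664 to 94173568), which encodes a metal-binding metallothionein, had 80.7, 62.0, 52.7 and 66.5 CPM at 37 °C and 40.3, 46.9, 41.7 and 37.0 CPM at 40 °C (−0.66, −0.95 to −0.37). None of these 3 genes overlapped between the groups, yet each had an adjusted p of 0.823 by edgeR's quasi-likelihood test, as had all 12 genes that this rule named. Malat1 and Mt2 were among the genes called in each of 3 alternative analyses (DESeq2, no filter on low counts, and the within-group component as a covariate), and Neat1 in the last 2 of these. All 3 reuse the same counts, and the component was itself computed from them, so these calls are not independent evidence. With that covariate 1461 genes had an unadjusted p under 0.05 by edgeR's test.

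The remaining genes of smallest p in the lower direction were Hist1h1c, Txnip and Syt8. The linker histone gene Hist1h1c stood at 15.6 ± 2.11 and 10.5 ± 1.29 CPM at 37 and 40 °C (SD, n = 4 each) and did not overlap (−0.57, −0.84 to −0.30). Txnip, the glucose-responsive inhibitor of thioredoxin, overlapped between groups (38.5 ± 6.63 and 28.4 ± 3.08 CPM, −0.44). The synaptotagmin family gene Syt8 was tightly grouped at 14.2, 14.3, 14.4 and 14.5 CPM at 40 °C against 17.2 to 19.5 CPM at 37 °C (−0.33, −0.53 to −0.14). Histone mRNAs of the replication type usually lack a poly-A tail and are read only in part by poly-A selection.

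In the higher direction the 6 genes of smallest p under the same rule were Cyr61, Ankrd1, Mb21d1, Tmem171, Pgp and Gpatch1. Cyr61 (ENSMUSG00000028195, chromosome 3, 145646976 to 145649981), which encodes a secreted CCN family protein and is a target of YAP, had 214, 198, 215 and 196 CPM at 37 °C and 218, 252, 305 and 308 CPM at 40 °C. All 40 °C libraries were above all 37 °C libraries, but library 1 at 40 °C only barely, and the log2 fold change was 0.40 (0.20 to 0.60, adjusted p = 0.823). Like Neat1, Cyr61 was called with the within-group component as a covariate (edgeR adjusted p = 0.0215) and with no filter on low counts (adjusted p = 0.00351). The step on to 44 °C was called at 0.65 (adjusted p = 0.00113). Ankrd1, an ankyrin repeat gene and another YAP target, stood at 8.46 ± 1.37 and 12.1 ± 1.13 CPM without overlap (0.52, 0.25 to 0.79). The second CCN family gene, Ctgf, a gene of the fixed panel, had 19.97, 18.7, 18.2 and 20.6 CPM at 37 °C and 18.7, 20.8, 37.7 and 30.2 CPM at 40 °C. Libraries 3 and 4 at 40 °C were high and libraries 1 and 2 were at the 37 °C level, so the groups overlapped (0.48, 0.12 to 0.83), and without 40 °C library 3 the estimate was 0.27. The other 4 genes that the rule named were the cytosolic DNA sensor gene Mb21d1 (0.42), Tmem171 (0.31), the splicing-related gene Gpatch1 (0.26) and the phosphoglycolate phosphatase gene Pgp (0.25), none of which overlapped between the groups.

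The medians of the YAP and actin lists were slightly above 0. Of 14 CCN and YAP target genes, 10 were above 0 with a median of 0.06, 2 lay all above 37 °C (Cyr61 and Ankrd1, against 1.61% of all genes) and 4 had an unadjusted p under 0.05 and were higher (2.11% of all genes). The mean of the list relative to 37 °C was 0.009, 0.009, 0.244 and 0.235 in 40 °C libraries 1 to 4, against −0.028 to 0.019 in the 37 °C libraries. Libraries 3 and 4 thus carried the difference in this list. Of 17 genes of the actin, SRF and contractile list, 16 were above 0 with a median of 0.07 and all but 1 had an interval inside 1.5-fold. In that list 2 genes lay all above 37 °C (1.61% of all genes). The myosin light chain gene Myl9 was 1 of them and had the highest estimate (4.52 ± 0.569 and 5.43 ± 0.367 CPM, log2 fold change 0.27). Cholesterol synthesis genes showed the same split of libraries, with list means of −0.016, −0.045, 0.153 and 0.177 in 40 °C libraries 1 to 4. In that list 18 of 24 genes were above 0 with a median of 0.08, and 6 had an unadjusted p under 0.05 and were higher (2.11% of all genes). Without 37 °C library 1 and 40 °C library 2 the medians were 0.10 for the CCN and YAP list, 0.09 for the actin list and 0.14 for cholesterol synthesis.

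Long noncoding genes of low expression were lower at 40 °C. The class (antisense, lincRNA, processed transcript and related types in the table) had 1150 tested genes, with a median log2 fold change of −0.16 against 0.0036 for 12335 protein-coding genes, and 66.5% of its genes were below 0. Its 40 °C libraries lay all below the 37 °C libraries for 55 genes (4.78%, against 2.23% of all genes) and all above for 8 (0.696%, against 1.61%). Noncoding genes are mostly low, so genes of 1 to 5 CPM were compared on their own. There the 448 long noncoding genes had library means of 0.059, 0.005, −0.044 and −0.020 around the 37 °C average, and −0.110, −0.119, −0.277 and −0.221 in 40 °C libraries 1 to 4, with no overlap. The 1549 protein-coding genes of the same level had a median of −0.09 against −0.18 for the noncoding ones. Their library means overlapped between the groups (−0.070 to 0.098 and −0.220 to −0.009). In 40 °C libraries 1 to 4 the protein-coding means were −0.063, −0.220, −0.067 and −0.009. The noncoding mean was thus far below the protein-coding one in libraries 3 and 4, slightly below it in library 1 and above it in library 2. At 5 to 20 CPM the median of 112 long noncoding genes was −0.06 and the library means overlapped, and for the 46 genes at 20 CPM and over the median was −0.00078, 50% were below 0 and the means overlapped. No source says if strand was used in counting, so reads of antisense and intronic genes may include those of genes they overlap. The pattern was noticed after the data were seen. The class median stayed between −0.18 and −0.08 in every alternative run, and the value nearest 0 came from a minimum count of 50.

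**Figure D4:**
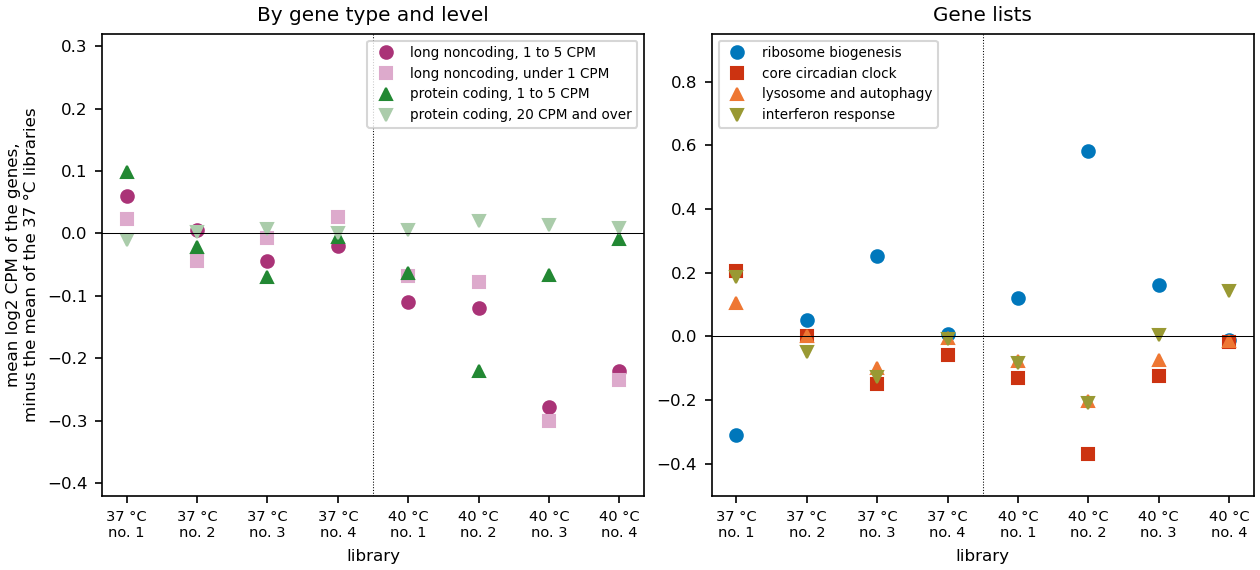
Points are, per library, the mean log2 CPM of a set of genes minus its mean over the 37 °C libraries, for gene types by expression level (left) and for 4 gene lists (right), with 37 °C libraries left of the dotted line and 40 °C libraries right of it. Long noncoding genes of 1 to 5 CPM lie between −0.277 and −0.110 in all 40 °C libraries, below every 37 °C library, while the 4 lists overlap and ribosome biogenesis is set apart by 37 °C library 1 and 40 °C library 2.

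The shares of counts restate these levels and are given as a description, since the classes were chosen after their values were seen. Long noncoding genes took 0.760% ± 0.0261 of counts at 37 °C and 0.682% ± 0.0430 at 40 °C, and Malat1 and Neat1 together took 0.123% ± 0.0180 and 0.0857% ± 0.0111 (SD, n = 4 each). Protein-coding genes took 97.3% ± 0.0201 and 97.5% ± 0.110. For these 3 shares no 40 °C library overlapped a 37 °C library. The share of mitochondrially encoded genes (2.01% ± 0.164 and 1.91% ± 0.166) and that of ribosomal protein genes (4.74% ± 0.0842 and 4.75% ± 0.227) overlapped. In bulk RNA, fewer cells of a kind and less RNA per cell cannot be told apart.

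Across the functional and cell type marker lists, 879 listed genes were tested, 473 above 0 and 406 below, with a median log2 fold change of 0.01. Of these, 32 had an unadjusted p under 0.05 and were higher and 31 were lower, 7.17% against 5.21% of all genes. Groups did not overlap for 16 above and 12 below, 3.19% against 3.83% of all genes. The interval lay inside 1.5-fold for 746 (84.9%), against 72.9% of all genes, and 47 of the 56 lists with a tested member had a median within 0.1 of 0. The medians farthest from 0 were in marker lists of few tested genes: 0.35 for 4 endothelial and −0.22 for 4 macrophage and blood markers. Without 37 °C library 1 and 40 °C library 2 some medians near 0 took the other sign: 0.09 for the interferon response, 0.05 for MHC class I, 0.13 for collagen chains, 0.04 for hypertrophy and mineralization and 0.01 for the immediate early transcription factors. So did those of the ATF4 response (0.05), NRF2 (0.01), the ER unfolded protein response (0.02) and hedgehog and PTH signalling (0.05).

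**Figure D5:**
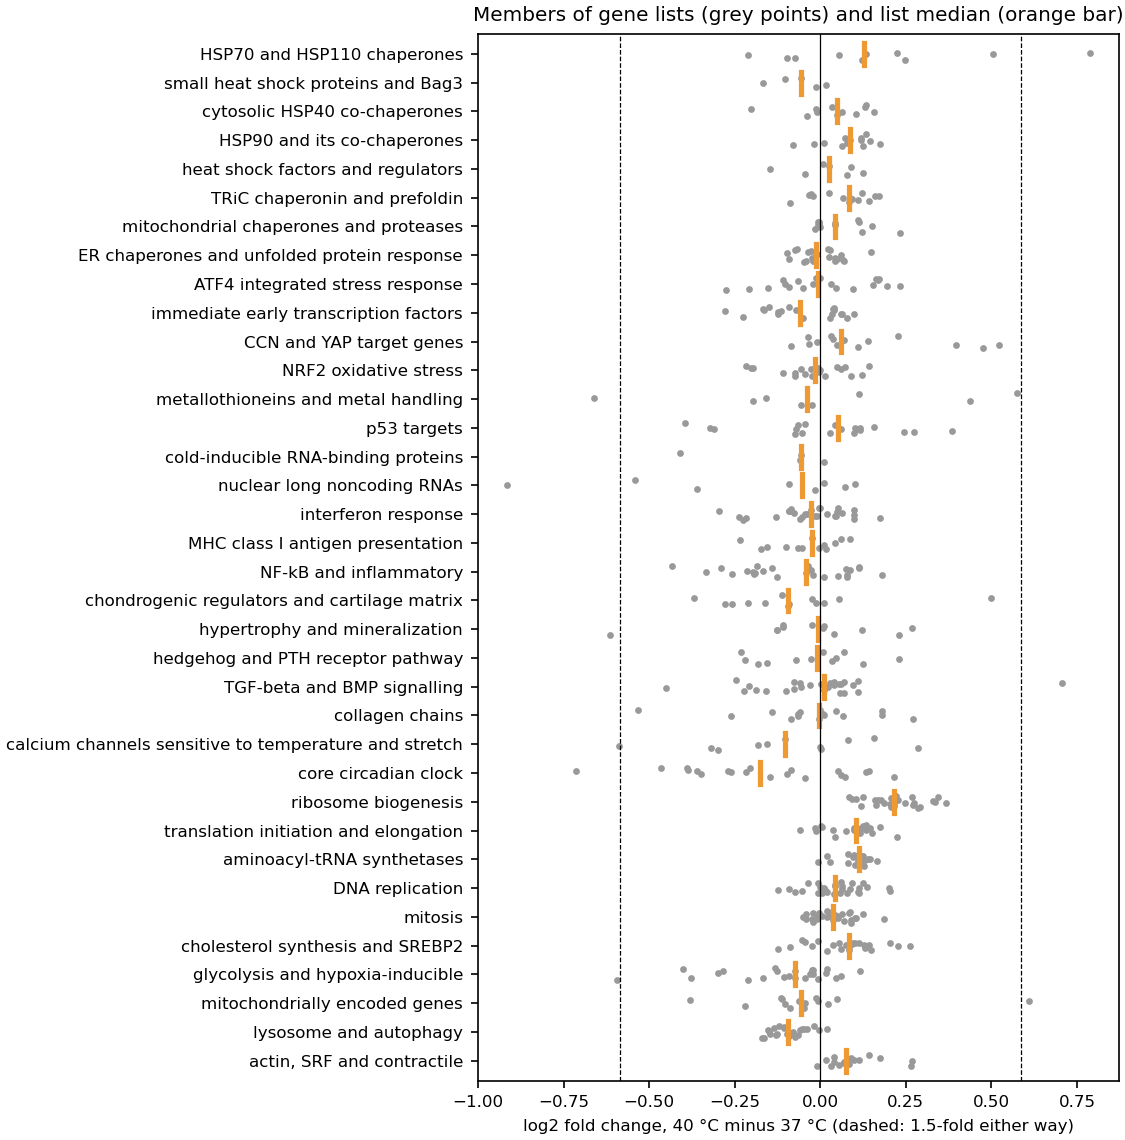
Grey points are the log2 fold changes at 40 °C against 37 °C of the tested members of each described list, orange bars are list medians and dashed lines mark a 1.5-fold change either way. Most points lie between the dashed lines, and the medians run from −0.18 for the core circadian clock to 0.22 for ribosome biogenesis. Among the described lists, which leave out the cell type markers, those 2 are the ones farthest from 0.

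Ribosome biogenesis had the highest median of the functional lists. These genes make and assemble ribosomes in the nucleolus, and all 28 had an estimate above 0, from 0.08 for Npm1 to 0.37 for the RNA helicase gene Ddx21, with a median of 0.22. None of the 28 separated the groups (3.83% of all genes did) and 1 had an unadjusted p under 0.05 (5.21% of all genes). The list means were −0.310, 0.051, 0.251 and 0.009 in the 37 °C libraries and 0.121, 0.581, 0.160 and −0.010 in the 40 °C libraries. The highest was 40 °C library 2 and the lowest 37 °C library 1; without both, the median was 0.00064, and it was 0.08 without 40 °C library 2 alone and 0.12 without 37 °C library 1 alone. Ddx21 showed the same order, with 199.9, 282, 356 and 276 CPM at 37 °C and 327, 507, 329 and 274 CPM at 40 °C. With the within-group component as a covariate Ddx21 was called at 0.19 (edgeR adjusted p = 0.0309). Translation factors (19 of 22 above 0, median 0.10, Eif2b1 highest at 0.22) and aminoacyl-tRNA synthetases (19 of 20 above 0, median 0.11, Tars highest at 0.17) had medians of 0.01 and 0.04 without these 2 libraries.

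The core circadian clock had the lowest median of the functional lists, −0.18. These genes form a feedback loop of activators and repressors that keeps daily time, and 14 of 20 were below 0. Dbp, a clock output factor, had 25.02, 15.4, 12.9 and 20.5 CPM at 37 °C and 12.1, 6.78, 11.04 and 15.1 CPM at 40 °C, which overlapped (−0.71, −1.37 to −0.06). In 3 of the 20 genes, against 2.23% of all genes, every 40 °C library lay below every 37 °C library: the repressor genes Per2 (12.2 ± 0.746 and 8.86 ± 1.36 CPM, −0.47), Nr1d2 (157 ± 6.79 and 142 ± 2.71 CPM, −0.15) and Ciart (8.12 ± 0.672 and 6.20 ± 0.963 CPM, −0.39). These 3 were picked for that property. Without 37 °C library 1 and 40 °C library 2 the list median was −0.06. Genes of the lysosome and autophagy were below 0 in 23 of 24 cases with a median of −0.09 and a lowest value of −0.17 in the calcium channel gene Mcoln1, all intervals lay inside 1.5-fold, and the median was −0.01 without these 2 libraries.

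Stress pathways other than the chaperones showed no common direction. The ATF4 integrated stress response had 9 of 20 genes above 0 and a median of −0.01, with Ddit3, the pro-death factor CHOP, at 12.6 ± 1.27 and 10.4 ± 1.70 CPM (−0.28, overlapping) and Atf3 at 3.19 ± 0.874 and 2.77 ± 0.519 CPM. The NRF2 oxidative stress list had a median of −0.02, with the heme oxygenase gene Hmox1 largest (−0.22, −0.55 to 0.11). The p53 targets had a median of 0.05, with Trp53inp1 at −0.40 (−0.87 to 0.08) and the cell cycle inhibitor gene Cdkn1a at 0.03 (−0.39 to 0.45). Metallothioneins and metal handling had a median of −0.04, and the second metallothionein, Mt1, overlapped between the groups (231 ± 35.1 and 207 ± 25.6 CPM). The immediate early transcription factors, which respond within minutes to many stimuli, had 9 of 20 above 0 and a median of −0.06. Fos had 3.08, 3.22, 3.19 and 2.39 CPM at 37 °C and 3.70, 3.04, 2.81 and 2.68 CPM at 40 °C, and its interval of −0.32 to 0.40 bounded a change at 1.32-fold either way. Egr1 (20.8, 25.7, 10.6 and 12.6 CPM at 40 °C against 19.2 to 21.9 CPM at 37 °C) was low in the 2 libraries in which Ctgf was high, and Klf2, a flow-responsive factor gene, had the largest estimate of the list (−0.28, −0.65 to 0.09).

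The list of cold-inducible RNA-binding proteins had 4 measured genes. Of these, Cirbp and Rbm3 are known to fall when temperature rises, and the highest member was Rbmx (0.01). Cirbp had 19.97, 15.5, 14.2 and 18.4 CPM at 37 °C and 14.4, 10.6, 12.0 and 14.4 CPM at 40 °C. Only 40 °C libraries 1 and 4 overlapped the lowest 37 °C library, and the log2 fold change was −0.41 (−0.75 to −0.07, adjusted p = 0.823). Rbm3 had 209 ± 11.7 and 200.2 ± 18.6 CPM (−0.06, −0.21 to 0.10). The list median was −0.06, and −0.19 without 37 °C library 1 and 40 °C library 2. Among temperature- and stretch-sensitive calcium channels, Trpv4 had 14.0 ± 0.941 and 12.3 ± 2.34 CPM (−0.18, −0.50 to 0.13) and Trpm4 the largest estimate at 5 CPM or more (−0.32, −0.78 to 0.15). Of the 11 measured channel genes, 7 were below 0, and the median of −0.10 turned to 0.03 without those 2 libraries.

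Interferon, antigen presentation and inflammatory genes, which were lower at 44 °C, were near 0 at 40 °C. Of 29 interferon response genes, 10 were above 0 with a median of −0.03, and 23 intervals lay inside 1.5-fold. In the same fit the median was −0.55 at 44 °C against 37 °C, with 19 called lower (7.11% of all genes). Bst2, which tethers budding viruses, had 354, 347, 328 and 343 CPM at 37 °C and 319, 296, 333 and 340.1 CPM at 40 °C (−0.09, −0.25 to 0.07), and the step from 40 °C to 44 °C was −1.16 (adjusted p = 8.31e-07). Irf7, the interferon regulatory factor, gave −0.09 (−0.55 to 0.37) with a step of −1.28 (adjusted p = 0.00459), and Mx1, an antiviral GTPase gene, was lowest of its list at −0.30 (−0.94 to 0.35). MHC class I genes had a median of −0.02, with the peptide transporter gene Tap2 lowest (−0.24), against −0.63 at 44 °C. In the NF-kB and inflammatory list 16 of 25 genes were below 0 with a median of −0.04, and the median was 0.04 without 37 °C library 1 and 40 °C library 2. An unadjusted p under 0.05 was found for 6 lower genes (3.1% of all genes) and 1 higher gene (2.11%), Ptgs2, an inflammatory prostaglandin synthase gene. Il6, the inflammatory cytokine gene, had 69.2, 55.3, 51.6 and 63.0 CPM at 37 °C and 59.2, 38.6, 38.5 and 40.8 CPM at 40 °C, where library 1 overlapped the 37 °C range (−0.43, −0.79 to −0.08).

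Cartilage regulators overlapped between 37 and 40 °C, and a few hypertrophy and signalling genes did not. Of 23 chondrogenic regulators and cartilage matrix genes, 13 passed the filter and 4 of those had an interval inside 1.5-fold, so this list was bounded loosely. Its median was −0.09, and 0.08 without 37 °C library 1 and 40 °C library 2. Sox9, the master regulator of chondrocytes, had 68.0, 51.9, 43.5 and 53.5 CPM at 37 °C and 52.9, 34.3, 56.9 and 59.3 CPM at 40 °C (−0.09, −0.52 to 0.34). Sox5, its partner, gave −0.28 (−0.70 to 0.15), Acan, the main cartilage proteoglycan, −0.37 (−0.97 to 0.23) and Col2a1, the main cartilage collagen, −0.26 (−1.06 to 0.54). Runx2, the hypertrophy and bone regulator, was bounded closely at 0.01 (−0.11 to 0.13), and the angiogenic factor gene Vegfa of the hypertrophy list gave −0.13 (−0.46 to 0.21). In that list 2 of 12 genes lay all below 37 °C (2.23% of all genes) and the same 2 had an unadjusted p under 0.05 (3.1% of all genes lower): Enpp1, for an enzyme that makes the mineralization inhibitor pyrophosphate (3.63 ± 0.599 and 2.36 ± 0.626 CPM, −0.61), and the transcription factor gene Mef2d (211 ± 7.12 and 196 ± 6.53 CPM, −0.11). Collagen chains had a median of −0.0029, against −0.50 at 44 °C with 10 of 16 called lower there (7.11% of all genes). Col6a3 was the lowest of them at 40 °C (−0.53, −1.12 to 0.05). In hedgehog and PTH signalling 1 of 12 genes lay all above 37 °C (1.61% of all genes), the transducer gene Smo (15.7 ± 1.05 and 18.3 ± 1.47 CPM, 0.23, 0.05 to 0.41). In TGF-beta and BMP signalling 2 of 28 genes lay all below (2.23% of all genes). The inhibitor gene Id4 was 1 of these (23.7 ± 1.43 and 19.9 ± 1.76 CPM, −0.25, −0.51 to 0.01). The medians of these lists were −0.01 and 0.01.

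Proliferation genes were among the most closely bounded. The 28 mitosis genes had a median of 0.04 (0.0066 without 37 °C library 1 and 40 °C library 2), and 26 of their intervals were inside 1.2-fold. Aurka, a spindle kinase gene, was highest (180.2 ± 15.4 and 205 ± 10.2 CPM, 0.19). Mki67, a marker of dividing cells, was at 741 ± 32.2 and 789 ± 30.9 CPM (0.09, −0.01 to 0.19). The 30 DNA replication genes had a median of 0.04 (−0.0084 without these 2 libraries), all 30 lay inside 1.5-fold, and Orc1 of the origin recognition complex was highest (0.20). Ccnd1, for cyclin D1, gave 0.05 (−0.09 to 0.20), and its step from 40 °C to 44 °C was −0.28 (adjusted p = 0.0267).

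Energy metabolism gave small medians with 2 genes in which single libraries stood far off. Glycolysis and hypoxia-inducible genes were below 0 in 20 of 25 cases with a median of −0.07, but the list mean was 0.279 in 37 °C library 1 and −0.433 in 40 °C library 2, and without both the median was 0.10 in the other direction. Gapdh, a glycolytic enzyme gene with many processed copies in the genome, had 387, 395, 291 and 138 CPM at 37 °C and 328, 346, 22.4 and 222 CPM at 40 °C, a range too wide to bound its change (interval from −1.51 to 0.71). Mitochondrially encoded genes had a median of −0.06 (−0.18 without 37 °C library 1 and 40 °C library 2). In that list mt-Atp6, a subunit of ATP synthase, had 67.6 CPM in 40 °C library 1 against 14.3 to 22.6 CPM in the other 7 libraries. Its estimate of 0.61 turned to −0.12 without that library.

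Of the 28 genes of the fixed panel, 0 were called at 40 °C, while 11 were called for 44 °C against 37 °C (13.7% of all genes) and 9 for 44 °C against 40 °C (5.02% of all genes). The panel was chosen with earlier results of these data known, so its larger share of calls at 44 °C is not an independent result. The 9 calls are the test of whether the level at 44 °C differed from that at 40 °C. For the panel genes without a call in either comparison, no difference between the 2 temperatures was shown.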

How the data were processed

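RNA of 12 libraries was sequenced, and the deposited file gives raw counts per gene and library, not normalized. The submitters' processing notes name featureCounts 1.5.0-p3, HISAT2 2.0.5, fastp and StringTie 1.3.3b, with build mm10. Strand use and the treatment of multi-mapping reads are not given in the sources used here, and either can move reads between overlapping or near-identical genes. The file also lists gene lengths (other values the authors deposited), which entered no result.

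Genes were kept by filterByExpr (minimum count 10, minimum total 15). All 12 libraries entered a quasi-likelihood fit with a mean for each temperature and TMM scaling (R 4.3.3, edgeR 4.0.16), so that the spread rested on 9 residual degrees of freedom, and F-tests were two-sided with Benjamini-Hochberg adjustment over 14424 genes. SE was taken from the estimate and its F statistic, and 95% intervals used the t quantile of the fit. CPM values are on TMM-scaled library sizes and list means use log2 CPM (prior count 2). A limit of 3 counts, which a count of 0 allows, is 0.154 to 0.184 CPM and covers counting error only. DESeq2 1.42.0 and limma-voom (limma 3.58.1) were alternatives. No 2 libraries held identical values. The analysis was tested on simulated data.

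Named genes were the 6 of smallest p in each direction at 5 CPM or more without a predicted-gene name, since none was called, a fixed panel of 28 genes, and the member of largest change at 5 CPM or more in each described list; 1 gene that the rule took is not reported here. Genes such as Per2, Nr1d2, Ciart, Enpp1, Mef2d, Ptgs2, Mt1 and Hsf1 and the 4 pseudogene or noncoding genes of largest change were chosen after their values were seen. The comparison, lists and panel were chosen with earlier results of these data known. Of 978 listed symbols, 879 were tested, 98 were under the filter and 1 was ambiguous. Lists were described by counts and medians, with no set test.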

Additional observations from a re-analysis of the deposited data

Results flagged for a closer look

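In 150 groups of 4 libraries, taken over the values of the named genes and 7 shares of counts at each temperature, 10 had 1 library set far apart from the other 3, where chance alone marks about 1 group in 20. At 40 °C these were mt-Atp6 (67.6 CPM in library 1), Il6 (59.2 CPM in library 1), Mb21d1 (24.6 CPM in library 2), Eif2b1 (56.2 CPM in library 2), Tars (369 CPM in library 2) and Pgp (77.5 CPM in library 3). At 37 °C they were Hist1h1c (18.8 CPM in library 1), Pgp (57.0 CPM in library 1), Atf3 (1.89 CPM in library 3) and Fos (2.39 CPM in library 4).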

How the results depend on the processing

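The count of 0 genes called was 11 (4 higher, 7 lower) with the within-group component as a covariate, 4 (0 higher, 4 lower) with DESeq2 and 13 (3 higher, 10 lower) with no filter on low counts; 3 genes (Malat1, Mt2 and 3110039I08Rik) were called in all 3, and the cause was not tested. It was 0 with limma-voom, with the 8 libraries alone, with library totals or upper-quartile scaling, with a minimum count of 50, at thresholds of 0.01 and 0.10, without each replicate in turn, and, chosen after seeing the data, without 37 °C library 1 and 40 °C library 2. With the replicate number as a block, 0 were called, the smallest adjusted p was 0.0885 and 1031 genes had an unadjusted p under 0.05. The numbers were not taken to pair libraries, since deviations of same-numbered libraries correlated by 0.0729, 0.0478, −0.0404 and −0.0322. The 752 genes with an unadjusted p under 0.05 were 441 to 1056 with 1 replicate left out (441 without 37 °C library 1) and 539 without both libraries at the ends of the component. No scaling moved the median of all genes by over 0.1. The settings at thresholds of 0.01 and 0.10 reuse the main fit, so their outcome was fixed. Of 1358 values of named genes, those settings included, 1322 kept their direction and side of the threshold. Of the rest, 11 passed the threshold and 25 turned sign, none of the latter called. On the log2 scale the values that turned sign were Hmox1 (0.040), Mx1 (0.030), Vegfa (0.102), Ccnd1 (−0.022), Sox9 (0.193) and Irf7 (0.151) without both end libraries, Sox9 (0.046) and Irf7 (0.053) with the component as a covariate, and Runx2 with library totals (−0.00849) or upper-quartile scaling (−0.00958). With 1 replicate left out, the estimate ran from −0.123 (without 40 °C library 1) to 0.850 for mt-Atp6, from −0.225 to 0.000815 for Vegfa and from −0.00423 to 0.084 for Ccnd1 (both turning without 37 °C library 1). It ran from −0.184 to 0.054 for Sox9 and from −0.234 to 0.029 for Irf7 (without 37 °C library 1 or 40 °C library 2). It ran from −0.062 to 0.0998 for Fos, from −0.018 to 0.039 for Runx2 and from −0.146 to 0.165 for Cdkn1a. Of 1025 list medians, 24 moved by more than the spread between libraries.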
